A study of Mus musculus with 19 samples.

Results

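The genes described here coat the lipid droplet of the hepatocyte or break down the triglyceride inside it. They are 10 genes of the liver RNA-seq table, chosen by symbol, out of 24054 in all. Plin2, Plin4 and Plin5 encode perilipins, Cidea, Cideb and Cidec encode proteins of the CIDE family, Pnpla2 and Pnpla3 encode patatin-like lipases, and Abhd5 and G0s2 encode cofactors of Pnpla2. All 10 symbols were found, and 9 of them had a mean value of at least 1 and were tested with the other genes. The remaining member, Pnpla3, was taken from a second fit that kept every gene with a read.

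Liver RNA came from C57BL/6 mice on chow diet, all of them Raly flox/flox. Of these, 3 had received AAV8.TBG.Cre (L-RalyKO) and 3 had received AAV8.TBG.GFP (controls, which the labels call wild type), and tissue was taken 4 weeks after the virus. By the methods the animals were male by default, and the age of these animals is not given in the sources used here. The TBG promoter is active in hepatocytes, so Cre acts in hepatocytes and other liver cells keep Raly. The labels number the libraries of each group as replicates, here called mice 1 to 3, and p-values measure the spread between these samples.

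Neutral lipid is stored in the hepatocyte in droplets with a coat of perilipins, which limit the access of lipases to the core. CIDE proteins gather at contacts between droplets and move lipid from the smaller droplet to the larger. Lipolysis begins with adipose triglyceride lipase, the product of Pnpla2, which ABHD5 activates and G0S2 inhibits.

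Between 28302983 and 38052705 reads per mouse were counted on genes. Each value is a gene's reads divided by the effective size of its library (close to CPM) and is not divided by gene length. Raly itself was at 6.34, 6.61 and 7.39 in L-RalyKO and at 50.1, 48.6 and 46.8 in control livers (log2 fold change −2.67, adjusted p = 6.92e-07, limma). The 6 hepatocyte markers, among them Alb and Apob, summed to between 90781 and 91983 in L-RalyKO and between 82062 and 91264 in control livers, most of it Alb. Of the 6, limma called 0, where 6.55% of all tested genes were called. An unadjusted p under 0.05 was reached by 2 of the 6, Apoa1 and Ass1, and by 22.7% of all tested genes. Apoa1 lay between 6874 and 7260 in L-RalyKO and between 5141 and 6430 in controls (adjusted p = 0.0198, DESeq2, which called 9.36% of all genes). Control mouse 1 stood apart from the other controls in several of the genes below, so the log2 fold change of each member is also given without it. In raw reads, where abundant genes weigh most, control mouse 1 differed more from control mice 2 and 3 (chi-square per degree of freedom 75.5 and 89.3) than those did from each other (19.2). Principal components of log2(value + 1) did not single it out in the same way. On the first, control mice 1, 2 and 3 were at 17.4, 11.5 and 10.8. On the second, mice 2 and 3 lay farthest apart (−10.5 and 14.5), with mouse 1 between them (−2.89).

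Among the 9 tested members, 1 had an adjusted p under 0.05 (limma on log2(value + 1), Benjamini-Hochberg), Plin4, which was lower in L-RalyKO liver. Of all 11580 genes tested, 6.55% were called, 3.36% higher and 3.19% lower (389 and 369 genes, and 324 and 469 with total count scaling). On reads recovered from the values, edgeR (quasi-likelihood) called 0 of the 9, with 5 at an unadjusted p under 0.05, and 6.76% of all genes. DESeq2 called 2, Plin4 and Plin5, and 9.36% of all genes. Without control mouse 1, limma called 2 members, Plin4 lower and G0s2 higher, and 3.19% of all genes. Without that mouse edgeR called 2 (1 higher, 1 lower) and 3.77% of all genes, and DESeq2 called 5 (1 higher, 4 lower) and 5.83%. Cidea is 1 of the lower calls in each of these last counts, which are 1 and 4 when it is left out. In limma an unadjusted p under 0.05 was reached by 7 of the 9 and by 22.7% of all tested genes. The values of the L-RalyKO and control mice did not overlap in 5 of the 9, lower for Plin2, Plin4, Cidea and Cidec and higher for Plin5, where 28.1% of all tested genes did not overlap, 14.4% higher and 13.7% lower. Cidea is among the 9 only through control mouse 1. It is counted in the 7 of limma and the 5 of edgeR at an unadjusted p under 0.05, and in the 5 that did not overlap. Over the other 5 mice the mean of Cidea was 0.301, under the limit of 1, so that the fits without control mouse 1 still hold a gene which that mouse let in. The median log2 fold change of the 9 was 0.02, beside 0.004 over all tested genes. With 3 mice against 3, an exact permutation test cannot go below p = 0.1, and fewer hepatocytes and less RNA per hepatocyte cannot be told apart in tissue RNA. Limma called 0 of the 5 Kupffer cell, 5 endothelial, 5 stellate, 2 cholangiocyte and 1 lymphocyte markers tested, and 6.55% of all genes. Sox9, a cholangiocyte marker, lay higher in L-RalyKO (5.88, 4.70 and 4.29) than in controls (4.05, 2.81 and 2.46). Its adjusted p was 0.0774 in limma, 0.0375 in limma without control mouse 1 and 0.0277 in DESeq2. Epcam, the other cholangiocyte marker tested, had means of 1.32 in L-RalyKO and 1.08 in controls (adjusted p = 0.552, limma). Krt19 and Krt7, left out by the filter, also had higher means in L-RalyKO. Krt19 had 19, 19 and 44 reads there and 11, 13 and 15 in controls. Krt7 had 25, 18 and 32 reads against 12, 11 and 28. In the fit of every gene with a read their adjusted p was 0.259 and 0.472 (limma). The share of each cell type was not tested.

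**Figure D1:**
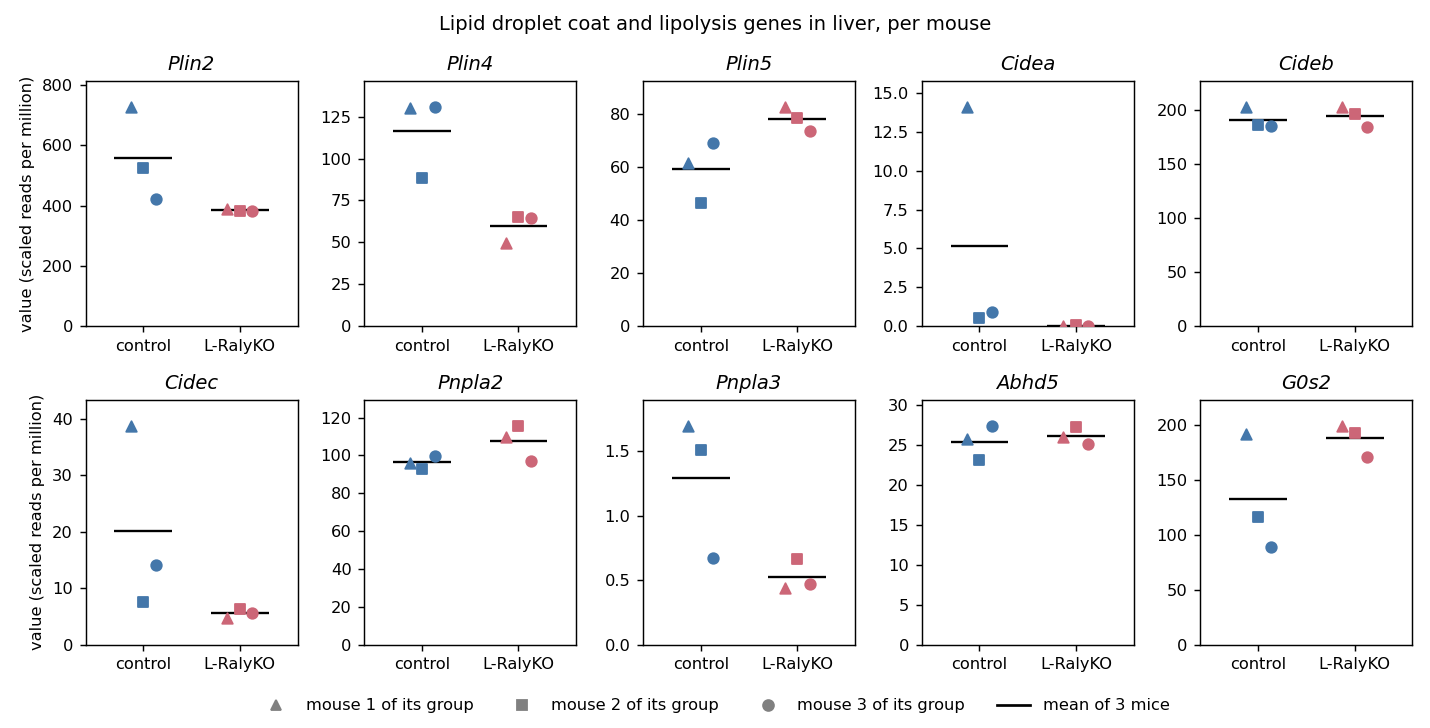
Values of the 10 genes (reads divided by effective library size, in CPM, linear axis from 0) in each control and L-RalyKO mouse, with the mean of 3 mice as a line and the symbol giving the mouse number within its group. Plin4 lies at 88.5 to 131 in controls and 49.4 to 65.0 in L-RalyKO, and Cidea, Cidec and Plin2 each have their highest value in control mouse 1.

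Of the perilipin genes, Plin4 was the only one called in limma. Plin2 had lower values in L-RalyKO liver and Plin5, the neighbour of Plin4, had higher ones, but neither passed. In the GENCODE vM1 annotation of NCBIM37 (mm9), Plin4 (ENSMUSG00000002831.7) lies on chromosome 17 from 56240014 to 56249225 and Plin5 (ENSMUSG00000011305.5) from 56251024 to 56257019, both on the − strand and 1798 bp apart. Plin2 (ENSMUSG00000028494.6) lies on the − strand of chromosome 4 from 86294290 to 86315964. Their promoter windows are shown because the neighbours and the genes with lower values can be compared in them. Each runs from 250 bases before to 50 bases after a transcript start, 5′ to 3′, from RefSeq on GRCm38.p6 (chr17:56109733-56110032, chr17:56117499-56117798 and chr4:86670010-86670309, all − strand). Capitals mark exact matches to the motifs named below.
Plin4: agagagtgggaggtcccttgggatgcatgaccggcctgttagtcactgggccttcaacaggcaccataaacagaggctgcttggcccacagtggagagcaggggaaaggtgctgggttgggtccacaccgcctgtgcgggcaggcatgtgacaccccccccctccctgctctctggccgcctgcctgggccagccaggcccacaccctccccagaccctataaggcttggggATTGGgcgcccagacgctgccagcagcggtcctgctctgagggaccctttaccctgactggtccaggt
Plin5: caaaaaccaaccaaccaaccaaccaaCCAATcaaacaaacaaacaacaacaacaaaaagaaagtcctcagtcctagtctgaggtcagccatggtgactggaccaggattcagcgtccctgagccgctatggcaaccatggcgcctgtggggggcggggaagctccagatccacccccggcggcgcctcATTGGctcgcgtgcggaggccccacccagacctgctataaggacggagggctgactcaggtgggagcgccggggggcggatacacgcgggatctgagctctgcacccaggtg
Plin2: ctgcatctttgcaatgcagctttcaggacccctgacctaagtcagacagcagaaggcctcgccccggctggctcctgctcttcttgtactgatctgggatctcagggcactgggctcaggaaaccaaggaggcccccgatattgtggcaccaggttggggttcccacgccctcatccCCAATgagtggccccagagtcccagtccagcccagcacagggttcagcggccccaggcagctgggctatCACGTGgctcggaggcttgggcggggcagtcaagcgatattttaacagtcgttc

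RefSeq windows were found for 9 members, all but Cidea, and numbered 11 in all, since Plin5 and Cidec have 2 each. The core of the NFY site, CCAAT on either strand, was present in 4 of the 11 windows (36.4%) and in 37.4% of the 32851 windows of all genes. It occurs in Plin4 at −18 to −14, in Plin5 at −224 to −220 and at −62 to −58, in Plin2 at −73 to −69 and in Pnpla3 at −99 to −95, counted from the start with −1 as the base before it. The E-box CACGTG was found in 1 window (9.09%, against 7.15% of all), that of Plin2 at −4 to 2. The motif TATAAA was also found in 1 window, that of Cideb (9.09%, against 13.6% of all). A direct repeat of AGGTCA with 1 base between the copies, the form bound by PPAR dimers, was in 0 of the 11 windows and in 0.0396% of all, and TCACNCCAC, a form of the sterol regulatory element, was in 0 and in 1.24%. These are matches of letters and do not mark bound sites.

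Plin4 encodes a perilipin found on nascent droplets, best known from adipocytes and muscle. Its value was 130, 88.5 and 131 in the controls and 49.4, 65.0 and 64.4 in the L-RalyKO mice. The groups did not overlap, and control mouse 2 was the lowest control. Means of 59.6 ± 8.87 in L-RalyKO and 117 ± 24.2 in controls (SD, n = 3 each) made Plin4 1.95-fold lower. On the log2 scale it fell by 0.94 with a standard error of 0.16, a 95% interval from −1.31 to −0.58 and an adjusted p of 0.0120 (limma). Leaving out control mouse 1 gave −0.85 with an adjusted p of 0.0469 (limma), where 1.61% of genes were called lower. With edgeR the log2 fold change was −0.97 and the adjusted p was 0.0535, and 0.150 without control mouse 1, while DESeq2 gave 2.88e-10 and 0.0157.

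Plin2 encodes the most widely expressed perilipin of the liver, which is stabilised on droplets and follows their amount. Its values were 727, 525 and 422 in the controls. In the L-RalyKO mice they lay close together, at 390, 382 and 382, below the lowest control. The means were 385 ± 4.82 in L-RalyKO and 558 ± 155 in controls (SD, n = 3 each), which is 1.45-fold lower. With a log2 fold change of −0.50 (95% interval −0.87 to −0.13) the adjusted p was 0.107 (limma), so the difference did not pass. The highest of the 6 was control mouse 1, without which the change was −0.29 (adjusted p = 0.144, limma).

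Plin5 encodes the perilipin that ties droplets to mitochondria and binds ABHD5 and the Pnpla2 lipase. Here the L-RalyKO mice had the higher values, 82.7, 78.8 and 73.7, against 61.7, 46.6 and 69.4 in the controls. The groups did not overlap, with control mouse 3 nearest to the L-RalyKO mice. Means of 78.4 ± 4.52 and 59.2 ± 11.6 (SD, n = 3 each) gave a log2 fold change of 0.42 (95% interval 0.13 to 0.70), which did not pass (adjusted p = 0.0904, limma). Leaving out control mouse 1 gave 0.46 (adjusted p = 0.159, limma). Leaving out control mouse 2 gave 0.26 (adjusted p = 0.105, limma) and control mouse 3 gave 0.54 (adjusted p = 0.0291, limma). DESeq2 called Plin5 higher with an adjusted p of 0.0126, and gave 0.0598 without control mouse 1. EdgeR did not call it (adjusted p = 0.147, and 0.280 without control mouse 1).

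**Figure D2:**
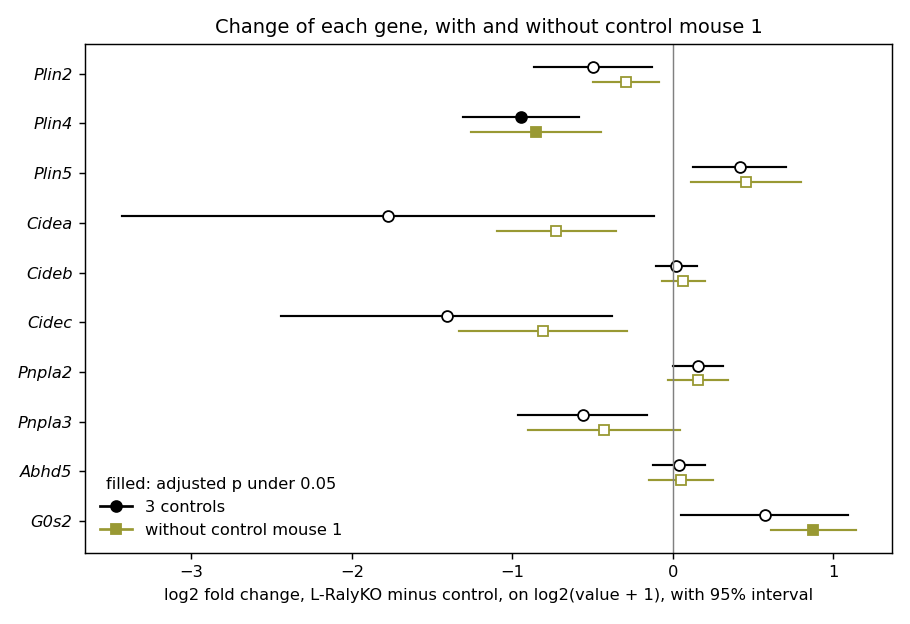
Log2 fold change of each gene, L-RalyKO minus control, on log2(value + 1), with its 95% interval from limma, for all 6 mice (circles) and without control mouse 1 (squares), filled where the adjusted p was under 0.05. Plin4 is filled in both fits (−0.94 and −0.85), G0s2 only without control mouse 1 (0.88).

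The CIDE genes differed widely in level and in spread. Cideb was even across the 6 mice, whereas Cidea and Cidec ranged widely among the controls and were low in all L-RalyKO mice. Cidea and Cidec are known as genes of adipocyte droplets that hepatocytes express when they store fat, and Cideb as the family member of the lean liver, where it acts in the lipidation of very low density lipoprotein. In NCBIM37, Cidea (ENSMUSG00000024526.8) lies on chromosome 18 from 67503218 to 67527448, Cidec (ENSMUSG00000030278.5) on chromosome 6 from 113374628 to 113385754 and Cideb (ENSMUSG00000022219.8) on chromosome 14 from 56372882 to 56377295. None of their transcripts shares a 50-base word with a protein-coding transcript of another gene, so that reads of the family members can be told apart at that length.

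Cidea had 473, 15 and 33 reads in the controls, or 14.1, 0.526 and 0.892 after scaling. L-RalyKO mice had 0, 3 and 0 reads, at most 0.0870 as a value. All controls lay above all L-RalyKO mice, and control mouse 1 was 15.8 times as high as the next control. Over each group, the 521 control reads and 3 L-RalyKO reads gave a ratio of 187 between controls and L-RalyKO (95% interval 63.7 to 911, counting error only). With control mouse 1 left out there were 48 reads, and the ratio was 26.1 (8.41 to 131). On log2(value + 1), which understates the change of low genes, the log2 fold change was −1.78 (95% interval −3.43 to −0.12, adjusted p = 0.192, limma), a difference that did not pass. It was −0.72 when control mouse 1 was left out (adjusted p = 0.0590, limma). There edgeR and DESeq2 gave adjusted p of 0.0146 and 0.00139, on a set of genes that Cidea entered through the mouse left out. In the fits that keep every gene with a read, which Cidea enters without that mouse too, the adjusted p without it was 0.0828 in limma, 0.000949 in edgeR and 0.00163 in DESeq2, where 0.0987%, 3.66% and 4.91% of genes were called. With all 6 mice edgeR gave 0.221, and DESeq2 gave neither an unadjusted nor an adjusted p for Cidea.

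Cidec showed the same order of mice. Its values were 38.8, 7.54 and 14.1 in the controls and 4.71, 6.30 and 5.58 in the L-RalyKO mice. The groups did not overlap, but control mouse 2 was only slightly above the L-RalyKO mice. Means were 5.53 ± 0.793 in L-RalyKO and 20.2 ± 16.5 in controls (SD, n = 3 each), and 10.8 ± 4.65 in the controls without mouse 1 (n = 2). The log2 fold change was −1.41 (95% interval −2.44 to −0.38, adjusted p = 0.105, limma) and became −0.81 without control mouse 1 (adjusted p = 0.114, limma). The highest control value of Cidec was 5.15 times the lowest, and the highest L-RalyKO value was 1.34 times the lowest.

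Cideb was at 202, 186 and 185 in controls and at 202, 196 and 184 in L-RalyKO, so that the groups overlapped throughout. Its log2 fold change was 0.02, with a 95% interval from −0.11 to 0.15 (adjusted p = 0.863, limma), and 0.06 when control mouse 1 was left out (adjusted p = 0.615, limma).

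Cidea and Cidec are strongly expressed in fat tissue, and their values in control mouse 1 were set beside 12 adipocyte markers. Of the list, Cfd, which encodes adipsin, had the same order of controls as Cidea and Cidec, with 423, 78 and 128 reads in the controls and 7, 38 and 5 in L-RalyKO. Fabp4 (254, 144 and 247 reads in the controls) and Adipoq (4, 0 and 1) had that order too, and Car3, Lipe and Adrb3 did not. The 7 markers with at most a few reads (Adipoq, Lep, Retn, Plin1, Adig, Slc36a2 and Ucp1), grouped by that low level, had 21 reads together in control mouse 1, 4 and 1 in the other controls and between 0 and 2 in the L-RalyKO mice. None of these 7 exceeded 7 reads in any library, and Slc36a2 had no read in any mouse. In the library of control mouse 1, Cidea had 473 reads, Cidec 1302 and Cfd 423, while Adipoq had 4 and Plin1 had 2.

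As scaled values, Cfd was at 12.6, 2.74 and 3.46 in the controls and 0.204, 1.10 and 0.132 in L-RalyKO, again highest in control mouse 1 (log2 fold change −2.10, adjusted p = 0.0318, limma, and 0.0284 without control mouse 1). The call of Cfd was lost in limma without L-RalyKO mouse 1 (adjusted p = 0.101) or 3 (0.0934). EdgeR gave 0.143 and DESeq2 0.0108, and without control mouse 1 they gave 0.145 and 0.158. Fabp4 was at 7.57, 5.05 and 6.68 in the controls and at 5.73, 4.79 and 5.47 in L-RalyKO. Car3, abundant in hepatocytes, was lower in L-RalyKO (log2 fold change −0.77, adjusted p = 0.0189, limma), a call lost in 4 of the 6 fits that leave out a mouse, among them that without control mouse 1 (0.0528). Adrb3 was higher (0.66, adjusted p = 0.0120, limma), and Lipe is given with the lipases below. Summed over the list the values were 3783, 3317 and 2526 in controls and 2122, 1821 and 1702 in L-RalyKO, nearly all of it Car3. What part fat tissue has in the control values of Cidea and Cidec was not tested beyond these reads.

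**Figure D3:**
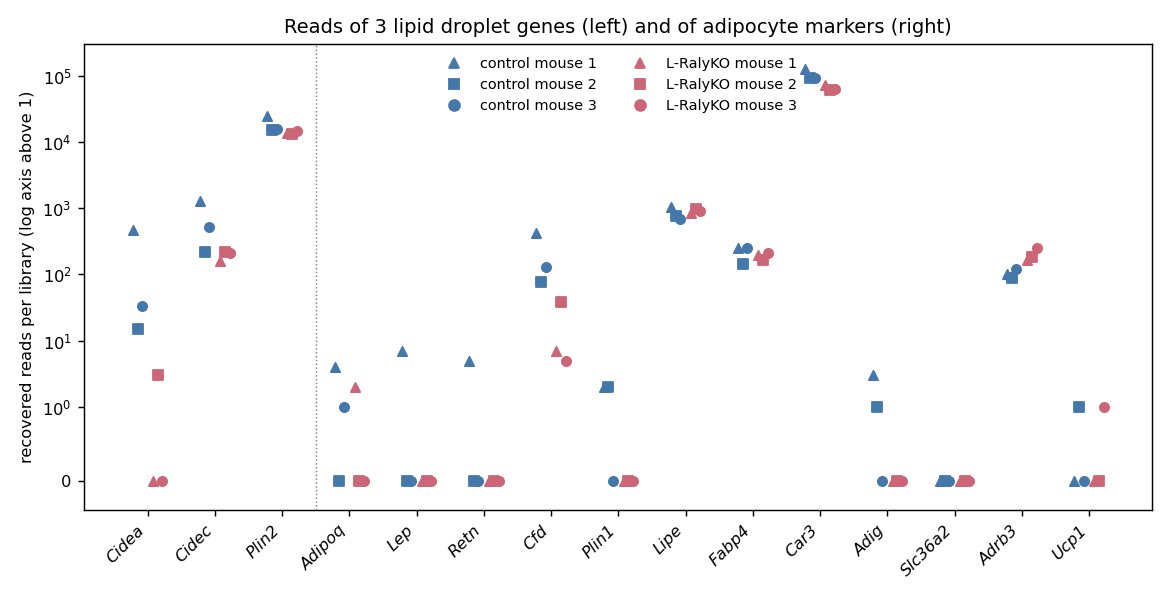
Recovered reads per library (log axis above 1, linear below) of Cidea, Cidec and Plin2, left of the dotted line, and of the 12 adipocyte markers, for each control (blue) and L-RalyKO (red) mouse. In control mouse 1 (blue triangle) Cidea has 473 reads and Cfd 423, where Adipoq, Lep, Retn and Plin1 have 4, 7, 5 and 2.

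The lipase pair at the head of lipolysis, Pnpla2 and its activator Abhd5, differed little between the groups. Pnpla2 (ENSMUSG00000025509.8, chromosome 7 from 148641097 to 148646642 in NCBIM37) was at 96.1, 92.9 and 99.8 in controls and at 110, 116 and 97.3 in L-RalyKO. L-RalyKO mice 1 and 2 lay above all controls and L-RalyKO mouse 3 lay within their range. The log2 fold change was 0.16, with a 95% interval of 0.0016 to 0.31 (adjusted p = 0.217, limma), and also 0.16 when control mouse 1 was left out (adjusted p = 0.365, limma). It was 0.10 without L-RalyKO mouse 2 and 0.23 without L-RalyKO mouse 3 (adjusted p = 0.468 and 0.0737, limma). Abhd5 (ENSMUSG00000032540.8, chromosome 9 from 122260726 to 122290642), which encodes the coactivator of the lipase, had values of 25.8, 23.1 and 27.4 against 25.9, 27.2 and 25.2 in L-RalyKO. Those groups overlapped, with a log2 fold change of 0.04 (95% interval −0.12 to 0.20, adjusted p = 0.795, limma), which became 0.05 without control mouse 1 (adjusted p = 0.810, limma).

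G0s2, the inhibitor of the Pnpla2 lipase, spread more widely in the controls than in the L-RalyKO mice. It was at 192, 116 and 89.0 in the controls and at 199, 193 and 171 in L-RalyKO. Control mouse 1 lay within the L-RalyKO range, and the other controls lay below all L-RalyKO mice. Means of 188 ± 14.7 and 132 ± 53.3 (SD, n = 3 each) gave a log2 fold change of 0.57 (95% interval 0.05 to 1.09), and the difference did not pass (adjusted p = 0.180, limma). With control mouse 1 left out the log2 fold change was 0.88 and G0s2 was higher at an adjusted p of 0.0103 (limma), where 1.57% of tested genes were called higher. EdgeR and DESeq2 gave adjusted p of 0.0175 and 1.83e-10 without that mouse, and 0.442 and 0.474 with it. With control mouse 3 left out instead, the log2 fold change was 0.33 (adjusted p = 0.345, limma). G0s2 (ENSMUSG00000009633.2) lies on chromosome 1 from 195098355 to 195099382.

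Pnpla3, which encodes an enzyme of the droplet surface with a known genetic link to fatty liver, was scarcely expressed. It had 57, 43 and 25 reads in the controls and 15, 23 and 18 in the L-RalyKO mice, which are values of 1.70, 1.51 and 0.676 against 0.436, 0.667 and 0.474. Control mouse 3 and L-RalyKO mouse 2 nearly met, so that the groups did not overlap by a margin of under 1 read. The control reads were 2.41 times those of L-RalyKO, corrected for library size (95% interval 1.74 to 3.36, counting error only), and 1.98 times without control mouse 1 (1.37 to 2.87). In the fit that kept every gene with a read, in which 2.81% of 17216 genes were called, the log2 fold change was −0.56 (adjusted p = 0.146, limma), and −0.43 without control mouse 1 (adjusted p = 0.383, limma). On the reads, Pnpla3 was called lower by edgeR (adjusted p = 0.0358) and DESeq2 (0.0342), which called 5.77% and 7.69% of genes, but not without control mouse 1 (0.164 and 0.355). Pnpla3 (ENSMUSG00000041653.4) lies on chromosome 15 from 83998246 to 84019942.

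Divided by exon length, the members' levels differed widely. In values per kb of exon, the controls had Plin2 first (159 ± 44.2, SD, n = 3), followed by G0s2 (157 ± 63.2) and Cideb (128 ± 6.59). The ranges of these neighbours overlapped, and all 3 lay above the remaining members. Pnpla2 (31.9 ± 1.13), Plin5 (28.4 ± 5.56), Plin4 (20.2 ± 4.21), Cidec (10.9 ± 8.88) and Abhd5 (7.80 ± 0.669) came next, each overlapping the one after it. Cidea (4.44 ± 6.64) and Pnpla3 (0.279 ± 0.117) were last. Part of this order rests on control mouse 1, at 20.9 for Cidec, 12.1 for Cidea and 228 for G0s2. Control mice 2 and 3 were at 4.06 and 7.60 for Cidec, below their Abhd5 (7.08 and 8.40). They were at 0.452 and 0.766 for Cidea and at 138 and 106 for G0s2. In L-RalyKO liver the order of the leading 3 on this scale was G0s2 (223 ± 17.4), Cideb (130 ± 6.25) and Plin2 (110 ± 1.37), with no overlap between neighbours. Plin5 (37.6 ± 2.17) then stood above Pnpla2 (35.6 ± 3.12) with overlapping ranges, and Cidea (0.0249 ± 0.0432) was last.

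**Figure D4:**
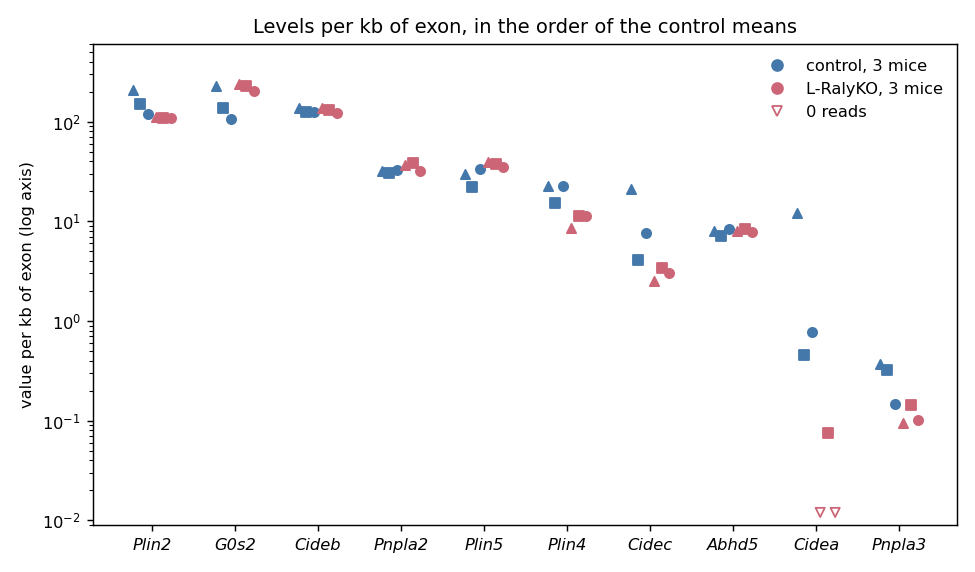
Value per kb of exon (log axis) of each gene in the 3 control and 3 L-RalyKO mice, the symbol giving the mouse number within its group, in the order of the control means, with open triangles for libraries with 0 reads. Plin2, G0s2 and Cideb are highest in both groups and Pnpla3 and Cidea lowest.

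Other genes of the pathway were taken from lists written by gene function. Of 19 tested genes among 21 other lipid droplet proteins, 0 had an adjusted p under 0.05 in limma (6.55% of all tested genes) and 3 had an unadjusted p under 0.05 (22.7% of all). DESeq2 called 2 (9.36% of all) and edgeR 0 (6.76% of all), and the median log2 fold change was 0.05, from −0.79 to 0.20. The lowest p was that of Fitm1, which binds triglyceride as droplets form, with 61.5, 34.5 and 33.2 in controls and 23.2, 25.5 and 21.8 in L-RalyKO (adjusted p = 0.0553, limma, and 0.0184 without control mouse 1). Mettl7a1, a droplet-associated methyltransferase-like protein, had the next lowest p and lay the other way, with 314, 320.7 and 306 in controls and 342, 386 and 358 in L-RalyKO (log2 fold change 0.20, adjusted p = 0.0662, limma). DESeq2 called Fitm1 lower and Mettl7a1 higher (adjusted p = 0.0412 and 0.0286). Plin3, the remaining perilipin of the liver, had means of 33.0 ± 0.839 in L-RalyKO and 36.5 ± 1.17 in controls (SD, n = 3 each, adjusted p = 0.147, limma). Among 18 tested lipases and cofactors, 2 were called in limma (11.1%, where 6.55% of all tested genes were), 1 higher and 1 lower. Lpl, the lipase that acts on circulating triglyceride, had 7.66, 13.5 and 15.6 in controls and 22.1, 31.1 and 22.7 in L-RalyKO (log2 fold change 1.02, adjusted p = 0.0356, limma, and 0.131 with edgeR), and 0.74 without control mouse 1 (adjusted p = 0.0413, limma). The call of Lpl was lost in 4 of the 6 fits that leave out a mouse. Ddhd2, a triglyceride hydrolase known from the brain, fell from 58.8 ± 2.75 to 46.7 ± 0.956 (SD, n = 3 each, log2 fold change −0.33, adjusted p = 0.0104, limma). Lipe, hormone-sensitive lipase, lay between 23.6 and 27.9 in L-RalyKO and between 18.7 and 30.6 in controls (adjusted p = 0.967, limma), and the median of the 18 was 0.007.

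Of 15 transcriptional regulators known to act on droplet or lipid genes, 3 had an adjusted p under 0.05 (limma), where 6.55% of all tested genes were called, and the median log2 fold change of the list was −0.02. Pparg, which drives Cidea, Cidec and Plin4 in adipocytes, had values of 16.6, 11.6 and 12.2 in controls and 7.91, 8.85 and 7.03 in L-RalyKO (log2 fold change −0.68, adjusted p = 0.0214, limma, 0.0404 without control mouse 1). Its call was lost without L-RalyKO mouse 1 (adjusted p = 0.0709, limma) or 3 (0.0661) and without the filter on low values (0.0538). Srebf1, the gene of SREBP1, fell from 323, 299 and 312 in controls to 191, 245 and 166 (adjusted p = 0.0173, limma). Hnf4a, a factor of hepatocyte identity, rose from 581 ± 86.8 to 846 ± 47.8 (SD, n = 3 each, adjusted p = 0.0155, limma). When control mouse 1 was left out their adjusted p was 0.0630 and 0.0509 (limma). Both calls were also lost without L-RalyKO mouse 1 (0.0649 and 0.0617), and that of Hnf4a without control mouse 2 (0.0510). Mlxipl, the gene of ChREBP, was called lower by edgeR and DESeq2 (adjusted p = 0.0457 and 0.0116) but not by limma. Each of these 2 tools called 4 of the 15, beside 6.76% (edgeR) and 9.36% (DESeq2) of all genes. Ppara, the main regulator of Plin2 and Plin5 in fasting liver, differed by 0.05 on the log2 scale (adjusted p = 0.662, limma), and the NFY subunits Nfya, Nfyb and Nfyc by −0.10, 0.06 and 0.01.

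Across the 6 livers, the tested genes closest to Plin4 in pattern on log2(value + 1) included Slc16a1, which encodes a monocarboxylate transporter (Pearson r = 0.996), and Synm, a gene of an intermediate filament protein (0.991). These correlations are over 6 libraries that share the group difference. After subtraction of the group means they were 0.982 and 0.959. Both genes were picked for high correlation over the same libraries, which raises these values too, so they are no test of a link. Slc16a1 had values of 48.0, 42.1 and 47.0 in the controls and 34.3, 38.6 and 37.6 in L-RalyKO.

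Leaving out each mouse in turn, the sign stayed the same for 8 members and changed for Cideb and Abhd5, whose values are near 0. The log2 fold change of Plin4 lay between −1.13 and −0.82 in these 6 fits, with an adjusted p from 0.00304 to 0.0469 (limma). Cidea lay between −2.38 and −0.72 and Cidec between −1.92 and −0.81, with the smallest change in each case without control mouse 1. Plin2 ranged from −0.68 to −0.29 and passed only without control mouse 3 (adjusted p = 0.0170, limma), where Plin5 passed as well (log2 fold change 0.54, adjusted p = 0.0291, limma). Cidec passed only without control mouse 2 (adjusted p = 0.0254, limma). Pnpla3 passed only without control mouse 3, in the fit of every gene with a read (−0.77, adjusted p = 0.0448, limma), where 1.07% of genes were called. Of all 11580 genes, 2.87%, 3.77% and 4.24% were called without L-RalyKO mouse 1, 2 or 3, and 4.66% and 7.02% without control mouse 2 or 3.

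**Figure D5:**
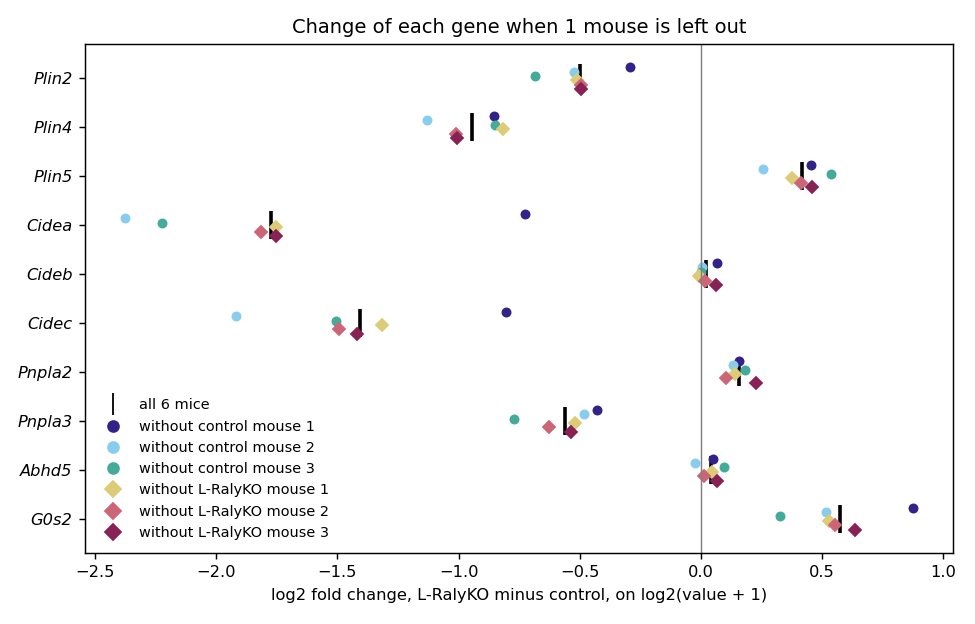
Log2 fold change of each gene, L-RalyKO minus control, on log2(value + 1), with all 6 mice (black bar) and with each control (circles) or L-RalyKO mouse (diamonds) left out. Cidea spans −2.38 to −0.72 and Cidec −1.92 to −0.81 depending on which control is left out, and Plin4 stays between −1.13 and −0.82.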

How the data were processed

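RNA-seq of liver was used from 3 L-RalyKO and 3 control mice, and no ATAC-seq or ChIP-seq sample entered. Reads had been aligned to mm9 with TopHat, and FPKM had been made with Cufflinks 2.0.2 and Cuffdiff. The deposited table instead holds a scaled signal, in which the authors' reads per gene are divided by an effective library size. All values (100% in each column) were whole multiples of the smallest positive one within 0.02, so that reads could be recovered, and the scaling factors equalled TMM factors. How the reads were counted by strand is not given in the sources used here. Column names give the virus and the replicate number, which set the mouse.

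Groups were compared with limma 3.58.1 (R 4.3.3, intensity trend) on log2(value + 1). A mean value of 1 or more was required, which left 11580 genes, and p-values were adjusted over all of these by Benjamini-Hochberg. EdgeR 4.0.16 and DESeq2 1.42.0 were run on recovered reads. All tests were first checked on simulated data, with the same relative spread between libraries for every gene and no outlying library. That check does not cover genes with a single high control, such as Cidea. Exon lengths and coordinates come from GENCODE vM1 on NCBIM37, and promoters from RefSeq on GRCm38.p6. Exons of Plin4, Cidea and Cideb overlap opposite-strand genes by 6, 20 and 20 bp. Named are all members, Raly, called genes of the lists, adipocyte markers and the 3 genes closest in pattern to a called member, of which 1 is not reported here. Other genes, among them Fitm1, Mettl7a1, Mlxipl, Plin3, Ppara, Sox9 and the NFY genes, were picked after their values were seen. The members and lists were chosen with earlier results of these data known. Alternatives were other tests, scalings, filters and pseudocounts, a replicate block and leaving out each mouse.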

Additional observations from a re-analysis of the deposited data

How the results depend on the processing

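Tests on reads without control mouse 1 were chosen after seeing the data. Reads are few for Cidea and Pnpla3, which limits what depth can show there. The 758 genes at adjusted p under 0.05 (389 higher, 369 lower) became 484 (254 and 230) without a filter on low values, 793 (324 and 469) with total count scaling, 777 (425 and 352) with upper-quartile scaling, 536 (263 and 273) without an intensity trend and 437 (204 and 233) with edgeR without control mouse 1, and from 332 to 813 with 1 mouse left out (168 to 454 higher, 164 to 359 lower).

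The count of called members, 1 (0 higher, 1 lower), was 0 with edgeR and 2 with DESeq2 (1 higher, 1 lower). Without control mouse 1 edgeR gave 2 (1 higher, 1 lower) and DESeq2 5 (1 higher, 4 lower), beside 3.77% and 5.83% of all genes. Both include Cidea, which had passed the filter through that mouse, and are 1 and 4 without it. Leaving out 1 mouse gave from 1 to 3 (0 to 1 higher, 1 to 2 lower). The log2 fold change of Plin4 lost its call with edgeR (−0.97), also without control mouse 1 (−0.88). Plin5 was called with DESeq2 (0.40), and Pnpla3 with edgeR (−1.28) and DESeq2 (−1.29). Without control mouse 1, DESeq2 called Plin2 (−0.30), Cidea (−4.66), Cidec (−0.98) and G0s2 (0.87), and edgeR called Cidea (−4.52) and G0s2 (0.87). Log2 fold changes with 1 mouse left out lay between −0.68 and −0.29 for Plin2, 0.26 and 0.54 for Plin5, −1.92 and −0.81 for Cidec, −0.77 and −0.43 for Pnpla3, 0.33 and 0.88 for G0s2, −0.0084 and 0.064 for Cideb, −0.025 and 0.094 for Abhd5 and 0.10 and 0.23 for Pnpla2. Cideb also changed sign with total count scaling (−0.012) and, at −0.00023, without control mouse 3. DESeq2 with all mice gave neither an unadjusted nor an adjusted p for Cidea, and a mean value of at least 5 left Cidea out. Where calls changed, the cause was not tested.

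Over all genes DESeq2 called 9.36%, edgeR 6.76%, the replicate block 704 of 11580 genes, and beside these the 19 other lipid droplet proteins had 0 calls, 2 with DESeq2 (1 higher, 1 lower) and 1, lower, with total count scaling, with the replicate block, and with edgeR or DESeq2 without control mouse 1. With 1 mouse left out they had from 0 to 1, all lower. The lipases had 2 calls (1 higher, 1 lower), and 1 (0 higher) with edgeR, without an intensity trend, without a filter and with edgeR without control mouse 1. With 1 mouse left out there were 1 to 3 (0 to 1 higher, 1 to 2 lower). The regulators had 3 (1 higher, 2 lower), 4 (1 higher, 3 lower) with edgeR, DESeq2, total count scaling and the replicate block, and 2 (1 higher, 1 lower) with edgeR without control mouse 1 and without a filter. With 1 mouse left out they had 0 to 3 (0 to 1 higher, 0 to 2 lower).

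The replicate block gave 704 genes. Plin4 stayed at −0.94 with an adjusted p of 0.0248 (limma), and the block changed no call of a member. Same-numbered mice are different animals, their deviations from the group means correlated at 0.0664, −0.0238 and 0.0196, and not every mouse correlated best with its own number.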

Other observations

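Ratios within a library do not depend on how libraries are scaled, and 4 were computed among the members after their values had been seen, as values per kb of exon. The ratio of Plin5 to Plin2 was 0.357, 0.347 and 0.325 in the L-RalyKO mice and 0.143, 0.149 and 0.277 in the controls. Every L-RalyKO liver lay above every control (log2 difference 0.92, exact permutation p = 0.1, two-sided). This had to follow from the single genes, since Plin5 was higher and Plin2 lower in every L-RalyKO mouse than in every control. The separation of the ratio and its p therefore add no support. That of Plin4 to Plin2 was 0.0772, 0.104 and 0.103 in L-RalyKO and 0.109, 0.103 and 0.189 in controls (exact permutation p = 0.3). G0s2 per Pnpla2, the inhibitor over its lipase, was 6.49, 5.98 and 6.31 in L-RalyKO and 7.16, 4.47 and 3.20 in controls, with overlapping groups (exact permutation p = 0.4). The activator over the lipase, Abhd5 per Pnpla2, was between 0.218 and 0.240 in L-RalyKO and between 0.230 and 0.254 in controls (exact permutation p = 0.2). None of the 4 can pass 0.05 with 3 mice against 3.

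Control mouse 1 had the highest control value in 6 of the 10 genes, Plin2, Cidea, Cideb, Cidec, Pnpla3 and G0s2, and not in Plin4, Plin5, Pnpla2 or Abhd5. Relative to the mean of the other 2 controls, it was at 19.9 for Cidea, 3.58 for Cidec, 1.87 for G0s2, 1.56 for Pnpla3, 1.54 for Plin2 and 1.09 for Cideb.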
